A study of Mus musculus with 4 samples.

Results

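Skap1, Abca4, Potegl, Abi3bp, Rad51ap2 and Rnf144b are 6 of the 21933 genes counted in nuclei of the mouse cerebral cortex, and they were taken by name because their levels were higher in excitatory neurons of creatine transporter knockout mice. The excitatory difference between genotypes therefore chose them and is given below as a description, with no test. Single-nucleus RNA sequencing covered 2 Control and 2 CrT-KO libraries. Each library came from the right cortical hemisphere of 1 adult animal, with no treatment and no pooling. Control males carried a working X-linked Slc6a8 gene (CrT+/y), CrT-KO males carried a deletion in it (CrT-/y), and all were C57Bl/6J. Mutant and control animals of the study came from the same litters, and the litter of each of these 4 is not given in the sources used here. The deletion was present in every cell of the animal, so a difference in neurons is not separated from effects of the loss elsewhere in the body.

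The files held 35694 nuclei, of which 1236 were marked as doublets and left out. The 4 libraries held 51507483 to 65240843 unique molecular identifiers (UMIs, each standing for 1 captured RNA molecule), with medians of 5548 to 6700.5 per nucleus. Any 2 libraries shared 12 to 19 cell barcodes. Clusters with excitatory markers held 16943 nuclei and those with inhibitory markers 8101, and 893 nuclei in 7 clusters stayed unnamed. Slc6a8 itself had 6.58 and 5.58 CPM (the UMIs of a gene divided by all UMIs of that population and library and scaled to 1000000) in excitatory neurons of the Control libraries and 1.51 and 1.46 CPM in those of the CrT-KO libraries, as the labels say.

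Creatine and its phosphorylated form buffer ATP in cells with high and variable energy demand, and neurons take creatine up through the transporter that Slc6a8 encodes. Excitatory cortical neurons release glutamate and are grouped by layer and by projection. Intratelencephalic (IT) cells project within the telencephalon, extratelencephalic (ET) cells to the brainstem and spinal cord, corticothalamic (CT) cells to the thalamus, near-projecting (NP) cells locally, and layer 6b cells are survivors of the subplate. The 6 genes come from unrelated pathways. Skap1 encodes an adaptor protein best known from T cells, where it links the antigen receptor to integrin adhesion. Abca4 encodes a lipid transporter of photoreceptors that clears retinoid compounds from disc membranes, and its human counterpart is mutated in Stargardt disease. Abi3bp encodes a secreted protein of the extracellular matrix. Rad51ap2 is a gene known from meiosis. Rnf144b encodes a RING-between-RING ubiquitin ligase known as a target of p53. Potegl belongs by name to the POTE ankyrin repeat genes.

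On GRCm38, Skap1 (ENSMUSG00000057058) spans chr11:96464593-96759130, Abca4 (ENSMUSG00000028125) chr3:122044443-122180123 and Potegl (ENSMUSG00000026774, 4931423N10Rik in GENCODE vM21) chr2:23207476-23267129. Abi3bp (ENSMUSG00000035258) spans chr16:56477878-56690135, Rad51ap2 (ENSMUSG00000086022) chr12:11456079-11462928 and Rnf144b (ENSMUSG00000038068) chr13:47122656-47247991. All 6 are protein-coding and lie on the plus strand. The whole gene body was counted, introns included, and the spans run from 6850 bases for Rad51ap2 to 294538 bases for Skap1. The annotation places 1 gene over Skap1, 2 over Abca4, 1 over Potegl and 2 over Rnf144b, all noncoding RNAs, pseudogenes or unproven gene models, and none of these 6 was counted in the files. The gene over Potegl lies on the same strand, and those over Skap1, Abca4 and Rnf144b lie on the opposite strand. Since strand use in the counting is not stated, reads from such a transcript could have entered the member's count.

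Because the 6 genes were taken as a group that moved together, the start regions on file are printed for comparison of their sequence. RefSeq windows (GRCm38.p6, from 250 bases before to 50 bases after the annotated start) were found for 4 of the 6 genes, and none was found under Skap1 or Abi3bp. The windows are chr3:122044210-122044509 for Abca4, chr2:23207226-23207525 for Potegl, chr12:11455805-11456104 for Rad51ap2 and, for the first of 2 starts, chr13:47122470-47122769 for Rnf144b, all on the plus strand. Each reads 5′ to 3′, and capitals mark matches on either strand to the TATA box TATAAA, the CCAAT box CCAAT, the GC box GGGCGG or the core TGACG of the cAMP response element.
Abca4: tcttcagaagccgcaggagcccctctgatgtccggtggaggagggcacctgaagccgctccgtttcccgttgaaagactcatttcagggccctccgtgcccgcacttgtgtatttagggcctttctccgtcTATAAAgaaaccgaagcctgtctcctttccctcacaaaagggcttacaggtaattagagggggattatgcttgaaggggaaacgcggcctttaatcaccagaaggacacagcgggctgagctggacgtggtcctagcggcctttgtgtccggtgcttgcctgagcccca
Potegl: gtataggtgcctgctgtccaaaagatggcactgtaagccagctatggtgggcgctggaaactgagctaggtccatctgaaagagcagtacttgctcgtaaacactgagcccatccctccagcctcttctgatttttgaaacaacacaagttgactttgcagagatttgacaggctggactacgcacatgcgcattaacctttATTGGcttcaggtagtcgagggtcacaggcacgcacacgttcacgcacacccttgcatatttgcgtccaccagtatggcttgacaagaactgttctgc
Rad51ap2: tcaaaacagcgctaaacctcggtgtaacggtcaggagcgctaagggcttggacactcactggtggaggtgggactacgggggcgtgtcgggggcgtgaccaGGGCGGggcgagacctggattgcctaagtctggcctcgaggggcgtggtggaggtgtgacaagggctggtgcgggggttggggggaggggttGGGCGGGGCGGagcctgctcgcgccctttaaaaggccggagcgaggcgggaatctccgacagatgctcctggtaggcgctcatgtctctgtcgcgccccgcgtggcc
Rnf144b: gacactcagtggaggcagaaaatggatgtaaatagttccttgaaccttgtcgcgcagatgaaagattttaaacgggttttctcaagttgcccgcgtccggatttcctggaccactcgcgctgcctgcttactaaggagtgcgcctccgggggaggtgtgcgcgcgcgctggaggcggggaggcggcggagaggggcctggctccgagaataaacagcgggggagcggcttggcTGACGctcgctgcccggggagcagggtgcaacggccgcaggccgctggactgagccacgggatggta
None of the 8 motifs searched was in all 4 printed windows. Abca4 holds 1 TATA box, Potegl 1 CCAAT box, Rad51ap2 3 GC boxes of which 2 overlap by a base, and Rnf144b 1 TGACG. The second Rnf144b window, not printed, holds 1 TATA box and 1 GC box. Of all 32851 windows in the table, 13.62% hold TATAAA, 37.41% CCAAT, 35.66% GGGCGG and 20.81% TGACG. No match was found in any of these windows for the whole cAMP response element TGACGTCA (1.79% of windows, each also counted under TGACG), the E-box CACGTG (7.15%), the AP-1 motif TGANTCA (7.81%) or the NRF1 motif (0.971%). GC content was 67% in Rad51ap2, 62.67% in the first Rnf144b window, 56.33% in Abca4 and 50% in Potegl, against a median of 52.67% over all windows.

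Over all excitatory neurons, all 6 genes were higher in both CrT-KO libraries than in both Control libraries, by 1.24-fold to 1.88-fold in the ratio of mean CPM. Over all 13930 genes tested in excitatory neurons, 11.3% showed such a separation of the libraries, and 0.079% were called higher in CrT-KO (edgeR quasi-likelihood test, Benjamini-Hochberg threshold 0.1). Skap1, Abca4, Potegl and Rad51ap2 were among the 11 genes called higher here, while Abi3bp and Rnf144b were not called. These calls rest on the contrast that chose the genes and are no separate support.

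Skap1, the T-cell adaptor, was present at 15.2 and 18.1 CPM in the Control libraries and at 32.4 and 28.0 CPM in the CrT-KO libraries. The log2 fold change was 0.91 ± 0.11 (SE, n = 2 libraries per genotype). Abca4, the retinoid transporter, had 6.92 and 5.94 CPM in Control and 13.1 and 11.0 CPM in CrT-KO, for a log2 fold change of 0.96 ± 0.13. For both genes every CrT-KO library lay above every Control library. Potegl had 4.29 and 3.94 CPM in Control and 7.59 and 7.18 CPM in CrT-KO, which gave a log2 fold change of 0.89 ± 0.14.

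Rad51ap2, the meiosis gene, had 38.4 and 34.9 CPM in Control and 53.6 and 51.3 CPM in CrT-KO, and its log2 fold change was 0.57 ± 0.08. Rnf144b, the ubiquitin ligase, had 29.6 and 24.6 CPM in Control and 32.5 and 34.7 CPM in CrT-KO, giving a log2 fold change of 0.36 ± 0.10. Its libraries were separated, though the gap between Control replicate 1 and CrT-KO replicate 1 was smaller than that between the 2 Control libraries. Abi3bp, the matrix protein, had 43.7 and 40.0 CPM in Control and 87.1 and 50.3 CPM in CrT-KO. Its log2 fold change of 0.76 ± 0.17 leaned on CrT-KO replicate 1, since it was 0.33 without that library and 1.09 without CrT-KO replicate 2.

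**Figure D1:**
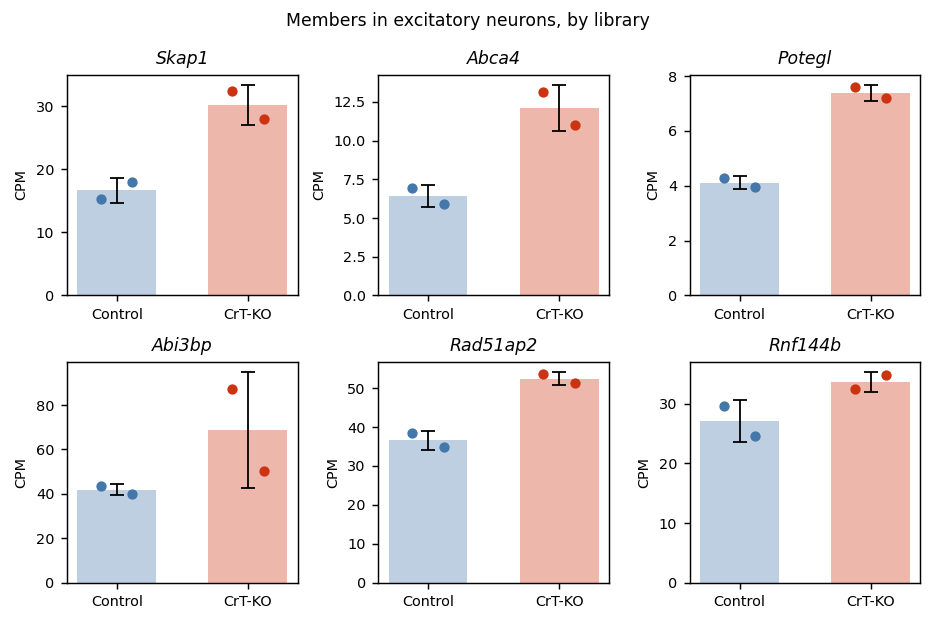
Level of each member in excitatory neurons in CPM on axes that start at 0, with 1 point per library, bars at the mean of the 2 libraries of a genotype and error bars of 1 SD. Both CrT-KO points lie above both Control points for all 6 genes, and Abi3bp has the widest CrT-KO spread (87.1 and 50.3 CPM).

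The higher levels came with more nuclei in which a UMI was found. After every excitatory nucleus was thinned to 3000 UMIs, which left out 41 to 85 shallower nuclei per library, a Skap1 UMI was found in 3.90% and 4.40% of Control nuclei and in 7.26% and 6.46% of CrT-KO nuclei. Without thinning the shares were 8.57% and 9.19% against 16.9% and 13.2%. Abi3bp was found in 7.04% and 7.81% of thinned Control nuclei and in 14.1% and 10.5% of thinned CrT-KO nuclei, against 12.9% and 13.5% and 25.7% and 18.9% without thinning.

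Rad51ap2 went from 10.0% and 9.27% of thinned nuclei in Control to 14.6% and 13.1% in CrT-KO, Abca4 from 2.12% and 1.51% to 4.01% and 3.35%, and Potegl from 1.35% and 1.09% to 2.09% and 2.10%. Unthinned, Rad51ap2 was found in 23.8% and 22.6% against 33.9% and 29.3%, Abca4 in 5.24% and 4.69% against 10.4% and 7.61%, and Potegl in 3.48% and 3.30% against 6.13% and 5.29%. Rnf144b was found in 8.65% and 7.10% of thinned Control nuclei and in 9.41% and 9.86% of thinned CrT-KO nuclei (19.0% and 16.4% against 21.9% and 20.1% unthinned). For all 6 genes the thinned shares of the CrT-KO libraries lay above those of the Control libraries. Intervals on such shares cover counting error only. For Skap1, the Wilson 95% intervals of the unthinned shares ran from 7.74% to 9.48% and from 8.34% to 10.1% in Control and from 15.8% to 18.0% and from 12.3% to 14.3% in CrT-KO.

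A nucleus with Skap1 held 1.56 and 1.76 UMIs of it on average in Control and 1.82 and 1.67 in CrT-KO, so the genotypes overlapped in UMIs per positive nucleus. Potegl and Abca4 positive nuclei held 1.07 to 1.20 UMIs in every library. Abi3bp was more concentrated, with 2.96 and 2.64 UMIs per positive nucleus in Control and 3.21 and 2.11 in CrT-KO and up to 39 UMIs in 1 nucleus.

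Free RNA in a droplet can give UMIs to nuclei that do not express a gene, so shares were set beside those in oligodendrocytes at 1000 UMIs per nucleus, where 138 to 375 oligodendrocyte nuclei per library were too shallow and were left out. Median depth before thinning was 7321 to 8843 UMIs in excitatory neurons and 1209 to 1406 UMIs in oligodendrocytes. Skap1 was found in 1.68% to 2.85% of excitatory nuclei over the 4 libraries and in 0.0822% to 0.426% of oligodendrocytes. Abca4 was found in 0.587% to 1.21% of excitatory nuclei and in 0 of 850, 1216, 939 and 971 oligodendrocytes, which allows a share of up to 0.353%, 0.247%, 0.319% and 0.309%. For Potegl the ranges were 0.318% to 0.948% and 0.0822% to 0.235%. The oligodendrocyte range lay below the excitatory one for the other 3 genes as well, at 0.576% to 1.70% against 3.28% to 6.24% for Abi3bp, 0.824% to 1.38% against 3.52% to 5.27% for Rad51ap2, and 0.493% to 1.17% against 2.52% to 3.56% for Rnf144b. The thinned oligodendrocyte shares of Skap1 were also higher in CrT-KO (0.309% to 0.426%) than in Control (0.0822% to 0.235%), from 7 and 3 positive nuclei. Without thinning the genotypes overlapped, with Skap1 at 4.63 and 1.44 CPM in Control and 3.76 and 4.09 CPM in CrT-KO oligodendrocytes. The thinned shares of Rnf144b were higher too, at 1.13% to 1.17% against 0.493% to 0.588%, from 22 and 11. For Potegl, Abi3bp and Rad51ap2 the thinned shares of the genotypes overlapped in oligodendrocytes. The share of all genes separated after thinning was not counted.

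**Figure D2:**
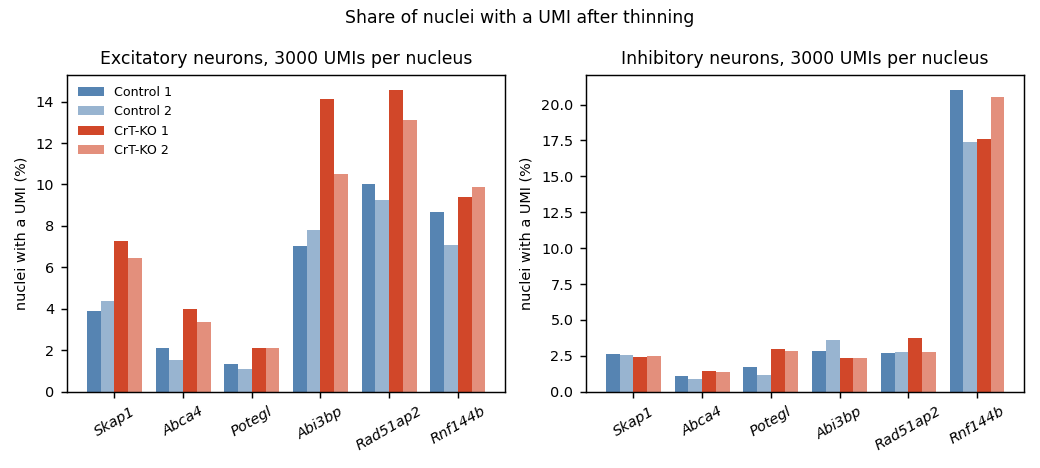
Share of nuclei with at least 1 UMI of each member after thinning to 3000 UMIs per nucleus, in percent from 0, with 1 bar per library in excitatory neurons (left) and inhibitory neurons (right). In excitatory neurons both CrT-KO bars exceed both Control bars for all 6 members, while in inhibitory neurons Abi3bp goes from 2.81% and 3.62% in Control to 2.34% and 2.36% in CrT-KO.

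The excitatory nuclei fell into 14 types, of which 11 held at least 100 nuclei in every library (16371 nuclei) and were compared. A name such as L2/3 IT-like rests on marker genes, and the 4 of the 11 types without a marker match are called by their 2 leading genes. Slc17a7, the glutamate vesicle transporter of cortical neurons, stood at 67.8 CPM or more in each of the 14 types, and Gad1 and Gad2 at 7.02 CPM or less. The Tshz2/Itprid1 nuclei also held Slc17a6 at 87.9 CPM.

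In controls each gene had its own order of levels over the types. Abi3bp was the most uneven. It stood at 301 and 213 CPM in Ndst4/Tafa2 nuclei and at 174 and 174 CPM in L5/6 NP-like nuclei. L6 CT-like nuclei followed with 38.7 and 44.6 CPM, and L5 ET-like nuclei were lowest with 1.88 and 1.10 CPM. Ndst4/Tafa2 nuclei alone carried 56.3% of the Abi3bp UMIs of Control excitatory neurons. Skap1 was highest in L5/6 NP-like nuclei (99.6 and 81.3 CPM), then in L6b-like (48.9 and 67.7 CPM) and L5 ET-like nuclei (27.7 and 41.3 CPM), and lowest in L4/5 IT-like nuclei (3.42 and 4.76 CPM). These 3 types did not overlap in the Control libraries, while L6 CT-like (18.0 and 26.6 CPM) and Ndst4/Tafa2 nuclei (21.9 and 18.6 CPM), next in the order, did.

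Abca4 was highest in Ndst4/Tafa2 nuclei (26.9 and 15.0 CPM) and had no UMI in L5/6 NP-like nuclei of either Control library. Among the other types its Control means ran from 2.37 CPM in L6b-like nuclei to 8.93 CPM in Lypd1/Dcn nuclei. The L6b-like and Il1rapl2/Deptor libraries overlapped, as did those of L6 CT-like with L6 IT-like nuclei and those of L4/5 IT-like with Lypd1/Dcn nuclei. Potegl was highest in L5/6 NP-like (12.4 and 12.6 CPM) and Tshz2/Itprid1 nuclei (11.1 and 10.8 CPM) and at 1.87 to 5.23 CPM elsewhere. Rad51ap2 was the most even, from 17.2 CPM in Lypd1/Dcn nuclei to 56.4 CPM in both Ndst4/Tafa2 and L2/3 IT-like nuclei. Rnf144b was highest in Tshz2/Itprid1 (57.7 and 58.5 CPM) and L4/5 IT-like nuclei (51.8 and 43.3 CPM) and lowest in L6 CT-like nuclei (2.70 and 3.64 CPM).

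Outside excitatory neurons Rnf144b was higher still, at 287 and 286 CPM in PV-like, 148 and 136 CPM in SST-like and 142 and 134 CPM in VIP-like interneurons of the Control libraries. Abca4 was at 29.6 and 49.6 CPM in endothelial cells and pericytes, from 2 and 8 UMIs, and Skap1 at 21.6 and 33.0 CPM in LAMP5-like interneurons. Rad51ap2 stood at 4.49 to 16.6 CPM in the 6 inhibitory types shown, below each of the excitatory types in the mean of the Control libraries. These levels are not corrected for gene length, so they order cell types for 1 gene and not 1 gene against another.

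**Figure D3:**
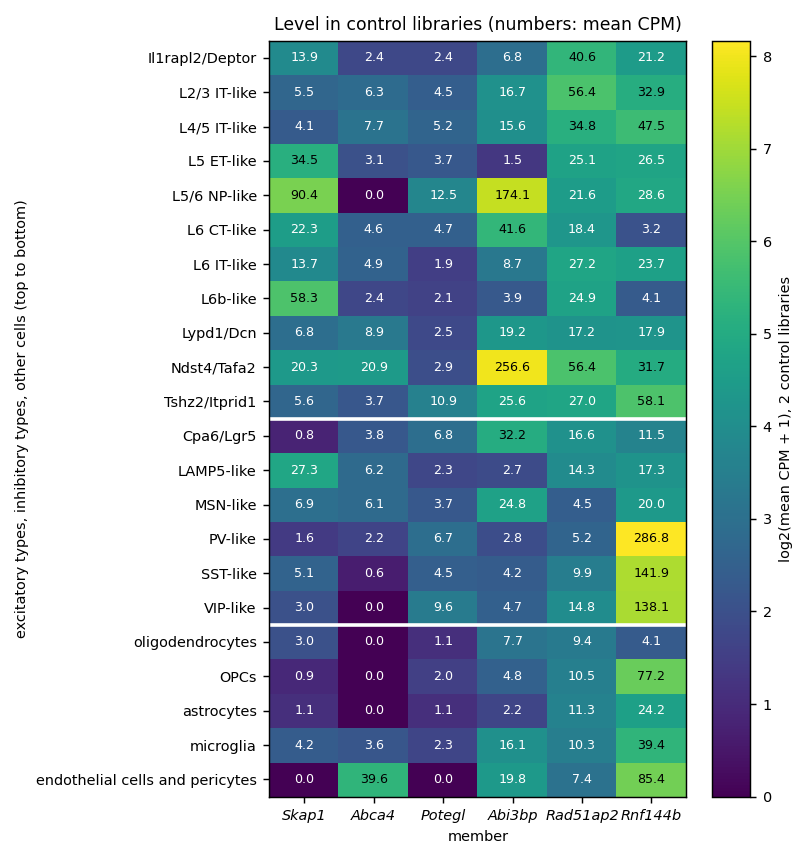
Mean CPM of each member in the 2 Control libraries, printed in each cell and coloured as log2(mean CPM + 1), for 11 excitatory types, 6 inhibitory types and 5 other populations, divided by white lines. Abi3bp peaks in Ndst4/Tafa2 and L5/6 NP-like nuclei (256.6 and 174.1 CPM), Skap1 in L5/6 NP-like nuclei (90.4 CPM) and Rnf144b in PV-like nuclei (286.8 CPM).

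The genes with the most similar order of levels over the 11 excitatory types and 6 other populations of the controls (Pearson r of log2(CPM + 1) over 17 points from 2 libraries, out of 11540 genes) were Mecr (0.89), 1700008O03Rik (0.86) and Efr3a (0.84) for Skap1, and Eftud2 (0.93), Kitl (0.90) and Ism1 (0.84) for Abca4. For Potegl they were Mroh8 (0.87), Gdap1 (0.81) and Gpr26 (0.80), and for Abi3bp Commd10 (0.78), Chgb (0.69) and Tmem86b (0.67). For Rad51ap2 they were Nlk (0.88), Nwd2 (0.86) and Bdnf (0.86), and for Rnf144b Rai2 (0.82), Gucy1a1 (0.81) and Ptgfrn (0.79). The points share their libraries and differ in depth, so r is a description.

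Rad51ap2 was the most uniform across types, with both CrT-KO libraries above both Control libraries in 10 of 11 types and a log2 fold change of 0.28 to 0.95. Of all genes tested in a type, the share with that separation was 12.4% in L2/3 IT-like, 12.9% in Il1rapl2/Deptor, 13.6% in L5 ET-like, 13.7% in L4/5 IT-like, 14.1% in Tshz2/Itprid1, 14.2% in L6 IT-like, 14.3% in L6b-like, 14.4% in Ndst4/Tafa2, 14.7% in L6 CT-like, 15.2% in L5/6 NP-like and 15.6% in Lypd1/Dcn nuclei. Abca4 and Potegl showed it in 9 types each, Skap1 in 8, Abi3bp in 7 and Rnf144b in 6. Unlike the shares, these counts include types where the gene was below the filter on low counts. These were L5/6 NP-like and L6b-like nuclei for Abca4, which passed the filter in 8 types, and L6b-like nuclei for Abi3bp, which passed in 10. The types are parts of the excitatory nuclei that chose the genes, so these counts are a description.

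The change of Abi3bp varied with the type. In L2/3 IT-like nuclei it was at 14.6 and 18.7 CPM in Control and 86.9 and 57.7 CPM in CrT-KO, with a log2 fold change of 2.17 ± 0.17. In L5 ET-like nuclei it went from 4 and 2 UMIs (1.88 and 1.10 CPM) to 38 and 17 UMIs (13.7 and 6.98 CPM), a log2 fold change of 2.78 ± 0.53, though both Control libraries were under 10 UMIs and the gene passed the filter through the CrT-KO libraries alone. L6 IT-like (8.54 and 8.86 against 29.9 and 22.6 CPM) and L4/5 IT-like nuclei (17.6 and 13.6 against 53.7 and 35.3 CPM) followed with log2 fold changes of 1.63 ± 0.23 and 1.57 ± 0.21.

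In those 4 types both CrT-KO libraries lay above both Control libraries. In L6 CT-like nuclei the log2 fold change was 0.69 ± 0.13 (38.7 and 44.6 against 68.2 and 64.0 CPM). In the 2 types where the gene was most abundant the libraries overlapped. Ndst4/Tafa2 nuclei had 301 and 213 CPM in Control and 390.5 and 178 CPM in CrT-KO (log2 fold change 0.19 ± 0.18), and L5/6 NP-like nuclei had 174 and 174 against 194 and 169 CPM (0.07 ± 0.15). As a result L2/3 IT-like nuclei held 8.22% of the excitatory Abi3bp UMIs in Control and 19.7% in CrT-KO.

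The genotype difference of Abi3bp was unequal among the 11 types in the test of the interaction (F = 12.2, adjusted p = 8.18e-07, edgeR quasi-likelihood with the library as a block), in which 1.57% of 11647 genes were called. This compares types within the same libraries and so asks something other than the average rise that chose the gene, though in the same 4 animals. Set against the mean of the other 10 types, the log2 fold change was larger in L2/3 IT-like nuclei by 1.23 ± 0.27 (adjusted p = 0.0305, 0.155% of genes called) and smaller in Ndst4/Tafa2 nuclei, where the difference was -0.94 ± 0.19 (adjusted p = 0.0133, 0.18% of genes called). Without Control replicate 1 neither contrast passed, with differences of 1.00 and -0.72 and adjusted p of 0.493 and 0.339, while the test over all types did (adjusted p = 0.000631).

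Skap1 was the other member with an unequal difference (F = 4.41, adjusted p = 0.0233). In L2/3 IT-like nuclei it went from 5.15 and 5.84 CPM to 18.3 and 16.2 CPM, a log2 fold change of 1.70 ± 0.20, and in L4/5 IT-like nuclei from 3.42 and 4.76 CPM to 10.3 and 9.31 CPM (1.29 ± 0.29). L6 CT-like nuclei had 18.0 and 26.6 CPM in Control and 57.1 and 38.1 CPM in CrT-KO (1.13 ± 0.20), and L5 ET-like nuclei 27.7 and 41.3 against 76.8 and 51.7 CPM (0.96 ± 0.20).

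The Skap1 libraries overlapped in the 2 types with the highest Control level. They were at 99.6 and 81.3 against 95.6 and 107 CPM in L5/6 NP-like nuclei (0.17 ± 0.20) and at 48.9 and 67.7 against 68.0 and 50.6 CPM in L6b-like nuclei (0.06 ± 0.20). No single type differed from the mean of the others at the threshold for Skap1, and L2/3 IT-like nuclei had a difference of 0.95 ± 0.27 (adjusted p = 0.188). In the 9 contrasts of the remaining types no member was called, where 0.206% of all genes were called for L4/5 IT-like, 0.721% for Lypd1/Dcn, 0.103% for L5 ET-like, 0.0859% for L6b-like, 0.0773% for Il1rapl2/Deptor, 0.0429% for L6 CT-like, 0.0258% for Tshz2/Itprid1, 0.00859% for L5/6 NP-like and 0% for L6 IT-like nuclei. The test over all types did not pass without Control replicate 1 (adjusted p = 0.249), without Control replicate 2 (0.164) or with coarser clusters (Leiden resolution 0.5, 0.144).

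**Figure D4:**
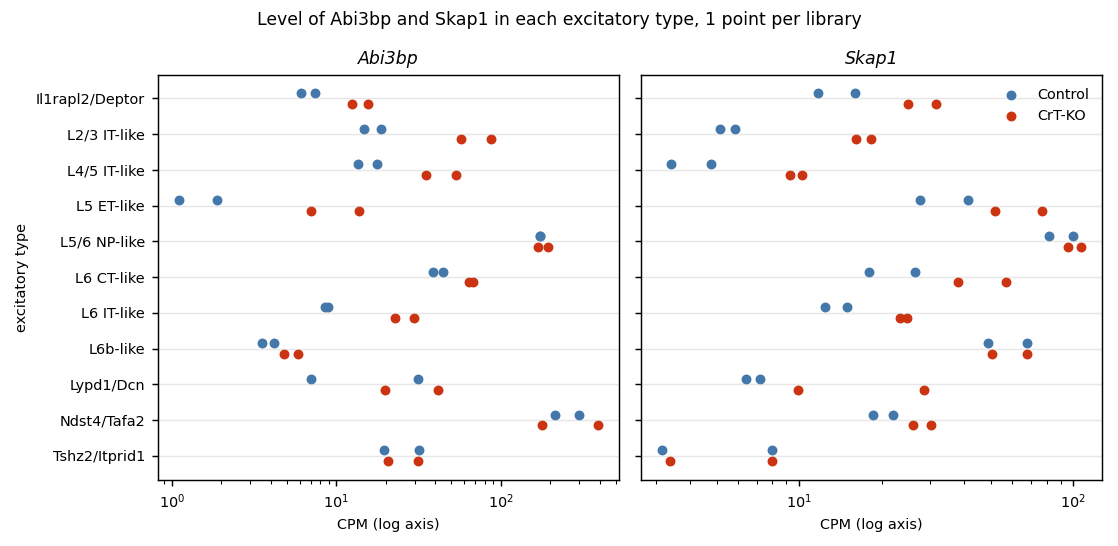
Level of Abi3bp (left) and Skap1 (right) in each excitatory type in CPM on a log axis, with 1 point per library, Control in blue and CrT-KO in red. Red points lie to the right of blue points in L2/3 IT-like, L4/5 IT-like, L5 ET-like, L6 CT-like and L6 IT-like nuclei, and the colours overlap in L5/6 NP-like and Tshz2/Itprid1 nuclei for both genes.

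For the other 4 members no difference among types was called, with adjusted p of 0.293 for Abca4, 0.795 for Potegl, 0.707 for Rad51ap2 and 0.67 for Rnf144b. Abca4 had its largest fitted rise in L6 CT-like nuclei (5.18 and 4.07 against 14.0 and 12.6 CPM, log2 fold change 1.55 ± 0.26). In the Ndst4/Tafa2 nuclei, where it was most abundant, the log2 fold change was 0.38 ± 0.21, and 26.9 and 15.0 CPM in Control overlapped 28.4 and 23.9 CPM in CrT-KO. In L5/6 NP-like nuclei Abca4 had 0 UMIs in the 120 and 111 Control nuclei, which allows a share of positive nuclei of up to 2.5% and 2.7%, and 2 and 5 UMIs in the 125 and 145 CrT-KO nuclei, so no fold is given.

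Potegl ranged from a log2 fold change of 0.40 ± 0.39 in Tshz2/Itprid1 nuclei to 1.95 ± 0.55 in L6b-like nuclei, the latter from 5 and 2 UMIs in Control and 16 and 17 in CrT-KO, where it passed the filter through the CrT-KO libraries alone. Rad51ap2 in L2/3 IT-like nuclei, which held 31.8% of its Control UMIs, went from 60.6 and 52.2 CPM to 85.8 and 85.0 CPM (0.65 ± 0.10). Rnf144b had log2 fold changes of 0.49 ± 0.15 in L4/5 IT-like nuclei and 0.43 ± 0.16 in L2/3 IT-like nuclei and of -0.34 ± 0.22 in L5 ET-like nuclei, where 28.2 and 24.8 CPM in Control stood above 18.4 and 22.6 CPM in CrT-KO. Its lowest log2 fold change was -0.63 ± 0.45 in L6 CT-like nuclei, at 2.70 and 3.64 CPM in Control and 2.30 and 1.66 CPM in CrT-KO. The log2 fold change of Rnf144b was above 0 in 9 of 11 types.

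**Figure D5:**
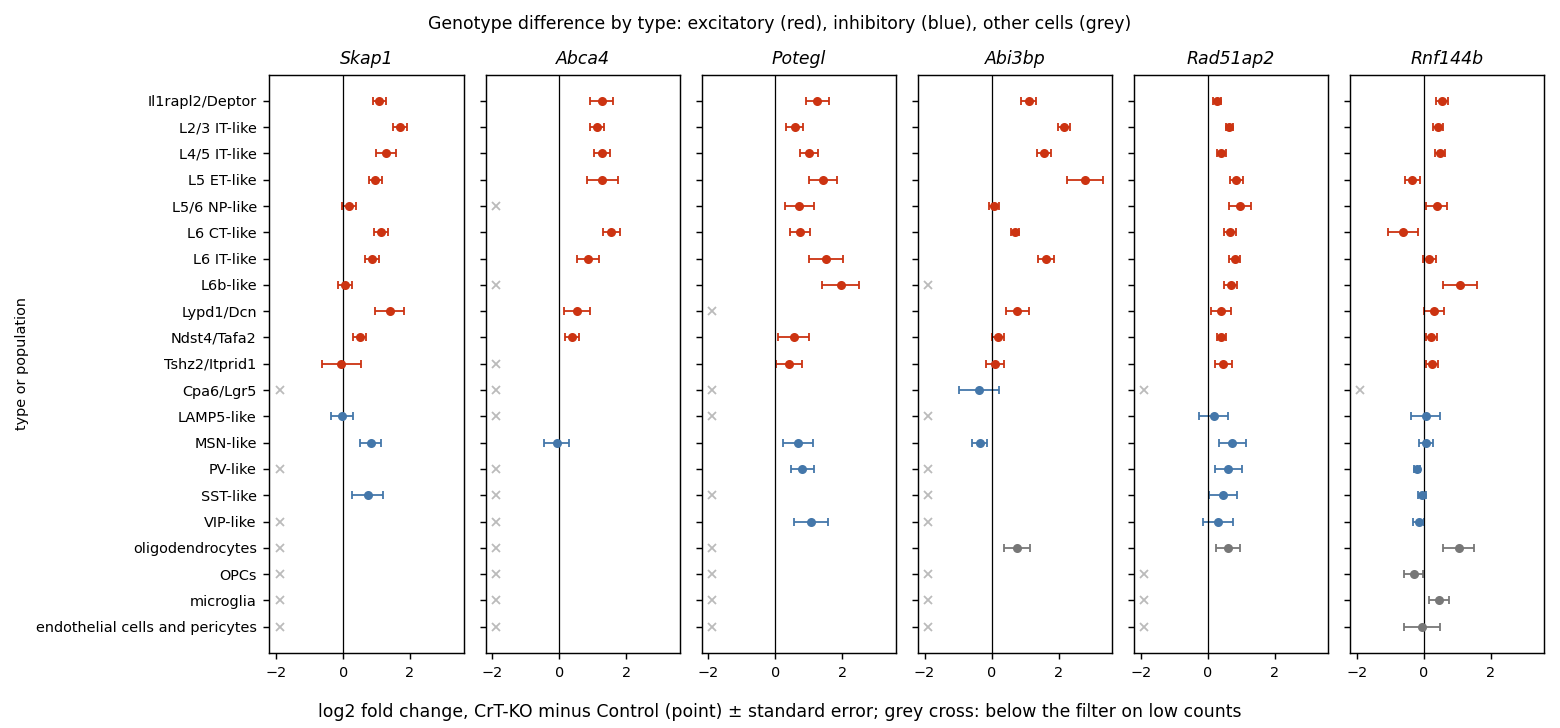
Log2 fold change between genotypes (CrT-KO minus Control, point) with its standard error (bar) for each member in 11 excitatory types (red), 6 inhibitory types (blue) and 4 other populations (grey), and a cross where the gene was below the filter on low counts. Abi3bp is at 2.17 in L2/3 IT-like and 0.07 in L5/6 NP-like nuclei, and Rad51ap2 runs over the excitatory types from 0.28 to 0.95.

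The shares of the types were compared next. L2/3 IT-like nuclei were 19.7% and 18.6% of excitatory nuclei in Control and 17.3% and 17.2% in CrT-KO, and L5 ET-like nuclei 4.68% and 3.94% against 4.85% and 5.09%. Of the 14 types, 6 had shares that did not overlap between genotypes, each at p = 0.33 (two-sided exact permutation test over 6 assignments of the libraries), which is the smallest p that 4 libraries allow. With every library weighted to the mean Control mix, the ratio of CrT-KO to Control was 1.76 for Skap1 (1.81 as measured), 1.88 for Abca4 (1.88), 1.79 for Potegl (1.79), 1.58 for Abi3bp (1.64), 1.43 for Rad51ap2 (1.43) and 1.24 for Rnf144b (1.24). In nuclei, more RNA of a gene per nucleus and more nuclei that transcribe it cannot be told apart at this depth.

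In inhibitory neurons, which the choice of genes did not use, none of the 6 was called (edgeR, lowest adjusted p = 0.512, with 0.0702% of 12829 genes called in either direction). Potegl came nearest, at 5.88 and 5.19 CPM in Control and 10.1 and 7.62 CPM in CrT-KO, with a log2 fold change of 0.72 ± 0.20 (adjusted p = 0.512), with both CrT-KO libraries above both Control libraries. Skap1 (9.25 and 10.1 against 11.1 and 11.8 CPM, 0.25 ± 0.16) and Rad51ap2 (9.60 and 9.35 against 12.2 and 11.3 CPM, 0.33 ± 0.16) were separated in the same direction, so this held for 3 of 6 genes, against 13.7% of all genes tested. Their adjusted p were 0.998 and 0.957.

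Abca4 was at 4.15 and 3.54 CPM in Control and 4.05 and 3.95 CPM in CrT-KO (0.08 ± 0.25, adjusted p = 0.998). Abi3bp lay lower in CrT-KO, at 13.8 and 19.9 against 11.3 and 11.7 CPM, a log2 fold change of -0.54 ± 0.18 (adjusted p = 0.865). The size rested on the Control libraries, at -0.81 without Control replicate 1 (adjusted p = 0.0405) and -0.22 without Control replicate 2 (adjusted p = 0.888). Rnf144b was at 107 and 94.0 CPM in Control and 84.9 and 95.4 CPM in CrT-KO (-0.14 ± 0.09, adjusted p = 0.998). In inhibitory neurons the Abi3bp libraries were thus separated in the direction opposite to that in excitatory neurons, while those of Rnf144b overlapped. Of 160 and 253 Control UMIs of Abi3bp in this population, 74 and 84 lay in MSN-like nuclei, which carry striatal markers. In CrT-KO they held 59 and 59 of 162 and 121. PV-like interneurons held 8 and 6 against 14 and 5, and SST-like 8 and 7 against 5 and 2. VIP-like held 3 and 5 against 6 and 0, and LAMP5-like 2 and 2 against 6 and 2. Abi3bp passed the filter in none of these interneuron types. It did pass in Cpa6/Lgr5 nuclei, named by 2 leading genes, with 5 and 27 against 11 and 6 UMIs. The libraries overlapped there, at 22.4 and 41.9 against 39.2 and 17.5 CPM, and the fitted log2 difference was -0.37 ± 0.60. Control replicate 2 had 262 of these nuclei, beside 119 in Control replicate 1 and 143 and 148 in the CrT-KO libraries. The Abi3bp UMIs not listed lay in other inhibitory types, which are not broken down here.

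The log2 fold change in excitatory minus that in inhibitory neurons was 1.34 ± 0.22 for Abi3bp, 0.90 ± 0.21 for Abca4, 0.67 ± 0.15 for Skap1, 0.51 ± 0.08 for Rnf144b, 0.25 ± 0.13 for Rad51ap2 and 0.18 ± 0.19 for Potegl. The excitatory part of that difference chose the genes, so no p is given. The difference was smallest for Potegl and Rad51ap2, which is a description only.

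Across the 6 populations other than excitatory neurons, 12 combinations of gene and population passed the filter on low counts and 0 were called by edgeR, with 3 at an unadjusted p under 0.05. DESeq2 called 0 as well. The 3 were Potegl and Abi3bp in inhibitory neurons and Rnf144b in oligodendrocytes, which went from 6 and 9 UMIs (3.97 and 4.31 CPM) to 14 and 15 UMIs (8.78 and 8.77 CPM), a log2 fold change of 1.04 ± 0.46 (adjusted p = 0.609, with 0.526% of genes called). Both Control libraries were under 10 UMIs there, so Rnf144b passed the filter through the CrT-KO libraries alone. In oligodendrocytes Abi3bp (9.26 and 6.22 against 15.7 and 10.5 CPM) and Rad51ap2 (10.6 and 8.14 against 14.4 and 14.0 CPM) also had both CrT-KO libraries above both Control libraries, as 20.4% of all genes tested there did, with adjusted p of 0.697 and 0.742.

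Rnf144b was the only member tested in microglia (36.2 and 42.5 against 49.3 and 59.5 CPM, 0.44 ± 0.30, adjusted p = 0.883), OPCs (76.1 and 78.3 against 53.8 and 73.9 CPM, -0.31 ± 0.27, adjusted p = 0.938) and endothelial cells and pericytes (-0.06 ± 0.55, adjusted p = 0.998), and no member passed the filter in astrocytes. In those 3 populations 0.0279%, 0.21% and 0% of all genes tested were called.

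In 6 inhibitory types with at least 100 nuclei in every library, fitted 1 by 1, 0 of the 19 combinations that passed the filter were called, with 3 at an unadjusted p under 0.05 (lowest adjusted p = 0.565). Of all genes tested in these types, 0.265% were called in MSN-like, 0.0521% in PV-like, 0.0225% in SST-like, 0.0145% in LAMP5-like and 0% in VIP-like and Cpa6/Lgr5 nuclei. Rnf144b in PV-like interneurons was at 287 and 286 CPM in Control and 248 and 247 CPM in CrT-KO, with a log2 fold change of -0.20 ± 0.09 (adjusted p = 0.852). In MSN-like nuclei, whose markers are those of medium spiny neurons of the striatum, Skap1 was at 7.02 and 6.79 against 9.52 and 15.6 CPM (0.83 ± 0.31, adjusted p = 0.565). Potegl in PV-like interneurons was at 5.49 and 7.97 against 11.1 and 12.3 CPM (0.81 ± 0.34, adjusted p = 0.811).

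Genes beside the members in the genome did not pass the test in excitatory neurons. Tfg, which ends 197 bases from Abi3bp on the other strand, had a log2 fold change of 0.11 ± 0.09 (adjusted p = 0.789). Yme1l1, 8216 bases from Potegl, had -0.02 ± 0.07 (adjusted p = 0.96), and Snx11, 8425 bases from Skap1, -0.13 ± 0.14 (adjusted p = 0.842). Vsnl1, a calcium sensor at 294.6 and 299.4 against 252.0 and 304.5 CPM, lies 19466 bases from Rad51ap2 and had -0.04 ± 0.09 (adjusted p = 0.924). Arhgap29 and Gclm beside Abca4 had 0.12 ± 0.12 and -0.01 ± 0.09, and Dek beside Rnf144b -0.05 ± 0.10, with adjusted p of 0.829, 0.991 and 0.923. Impg2, Nxph2, Fam49a and Id4, the nearest counted genes on the remaining sides, ran from -0.21 to 0.27 with adjusted p of 0.737 to 0.903, and Hoxb1 had 0 UMIs in every library.

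Genes of the pathways these members are known from were taken as 6 lists and read in excitatory neurons. Of 13 tested partners of Skap1 in adhesion signalling, 0 were called higher and 1 lower, the kinase Prkd1 (log2 fold change -0.38 ± 0.07, adjusted p = 0.0708), while the kinase Fyn had 0.03 ± 0.07 (adjusted p = 0.942). Of 15 other ABCA transporters, none was called, with Abca5 at -0.07 ± 0.07 and Abca3 at -0.08 ± 0.07 (adjusted p = 0.836 and 0.817). Of 10 tested retinoid handling genes (of 17 listed), none was called, with Rdh10, a retinol dehydrogenase, at 0.02 ± 0.12 and Aldh1a1, a retinaldehyde dehydrogenase, at 0.13 ± 0.12 (adjusted p = 0.973 and 0.816).

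None of 14 homologous recombination genes was called, with Rad52 at 0.10 ± 0.09 and Brca2 at -0.18 ± 0.12 (adjusted p = 0.814 and 0.717). None of 13 RING-between-RING ligases was called, with Arih1 at 0.11 ± 0.07 (adjusted p = 0.697), and none of the 11 matrix protein genes (of 16 listed) that passed the filter, with Tnr at 0.09 ± 0.10 and Spon1 at -0.07 ± 0.09 (adjusted p = 0.845 and 0.873). Median log2 fold changes of the 6 lists ran from -0.08 to 0.02, beside -0.01 over all 13930 genes, of which 0.187% were called in either direction.

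Markers of other cells were summed over the same excitatory nuclei. The 9 T-cell markers counted (of 11 listed) summed to 2.63 and 2.13 CPM in Control and 2.58 and 1.90 CPM in CrT-KO, and Cd3e had 0, 0, 1 and 3 UMIs over the 4 libraries in that order. Fibroblast markers (7 of 7 counted), which include matrix producers, summed to 3.75 and 3.26 against 2.72 and 3.45 CPM, and choroid plexus markers (5 of 5) to 2.09 and 1.94 against 2.05 and 2.19 CPM. Of the lists for inhibitory neurons, astrocytes, oligodendrocytes, OPCs, microglia and vascular cells, the OPC list had both CrT-KO sums above both Control sums (313 and 332 against 366 and 344 CPM), of which Lhfpl3 made up 298 and 318 against 351 and 332 CPM, while Pdgfra stayed at 0.41 CPM or less. The part of these markers in the members' levels was not tested. Excitatory markers summed to 10092 and 10086 CPM in Control and 9827 and 9359 CPM in CrT-KO, lower in both CrT-KO libraries, and their part was not tested either.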

How the data were processed

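Nuclei from the right cortical hemisphere of 2 Control and 2 CrT-KO mice were sorted by flow cytometry for intact nuclei and sequenced with a droplet 3′ kit that tags each molecule with a UMI. The deposited files hold UMI counts per gene and nucleus, which the authors made with Cell Ranger 3.1.0 against a GRCm38 reference in which the whole gene body counts as exon, so that unspliced RNA is included. FastQC and Seurat 3.1.4 are also named in the submitters' processing notes, and strand use is not stated. The files held no nucleus under 500 UMIs.

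Doublets were marked with Scrublet and left out. Nuclei were clustered with scanpy 1.11.5 (3000 variable genes, 30 components, 20 neighbours, Leiden resolution 1.0) and named from marker lists, with thresholds for naming set after the clusters were seen. UMIs were summed per library and population or type, since nuclei are not replicates, and tested with edgeR 4.0.16 in R 4.3.3 (quasi-likelihood, TMM, minimum count 10, Benjamini-Hochberg over all genes, threshold 0.1). The standard error is that of the log2 fold change, taken from the F statistic. Differences among types were tested as interactions with the library as a block. DESeq2 1.42.0, no filter, kept doublets, coarser clusters, a replicate block and leaving out each library were the alternatives. The fits were tested on simulated counts with known changes.

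All 6 members are reported in every population, with the genes next to them, the 3 genes most like each in Control levels, and up to 2 genes with the highest mean CPM from each of 6 pathway lists. The members and lists were chosen with earlier results of these data known. Coordinates come from GENCODE vM21 and promoter windows from RefSeq. Each library is 1 animal, and 2 animals per genotype limit the precision of every comparison. Some results on single genes and on 1 inhibitory type are not reported here.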

Additional observations from a re-analysis of the deposited data

Results flagged for a closer look

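The change of Abi3bp with genotype was unequal among the 11 excitatory types (adjusted p = 8.18e-07, edgeR interaction), and so was that of Skap1 (adjusted p = 0.0233). For Abi3bp the log2 fold change in L2/3 IT-like nuclei exceeded the mean of the other types by 1.23, and in Ndst4/Tafa2 nuclei the difference was -0.94. Some members lay above both Control libraries in both CrT-KO libraries in excitatory neurons and below them in both elsewhere. This was so for Abi3bp in inhibitory neurons (log2 fold change -0.54), where the excitatory minus inhibitory difference was 1.34 ± 0.22 and its p is not used, since the excitatory part chose the gene. It was so as well for Abi3bp in MSN-like nuclei (-0.36), which are part of the inhibitory neurons. It was also so for Rnf144b in PV-like interneurons (-0.20) and OPCs (-0.31). For MSN-like nuclei, PV-like interneurons and OPCs the difference from excitatory neurons was not tested. None of these lower levels was called (edgeR, adjusted p of 0.865, 0.853, 0.852 and 0.938 in the order given). The share of all genes with such a downward separation was not counted. An upward separation was found for 13.7% of all genes tested in inhibitory neurons.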

How the results depend on the processing

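In excitatory neurons all 6 log2 fold changes stayed above 0 under each of 11 alternatives, including each library left out, doublets kept and the mix of types held at the Control mean. This contrast chose the genes, and both CrT-KO libraries lay above both Control libraries for each. Leaving out a library could therefore hardly change the sign, and only the sizes are described. They ran from 0.72 to 1.06 for Skap1, 0.85 to 1.07 for Abca4, 0.66 to 0.93 for Potegl, 0.33 to 1.09 for Abi3bp, 0.52 to 0.61 for Rad51ap2 and 0.25 to 0.47 for Rnf144b. In the other populations 0 members were called with edgeR, DESeq2, no filter on low counts or doublets kept. The replicate numbers were not treated as pairs, since only 2 pairs exist (r = 0.16 between the genotypes' replicate differences over 13930 genes). With the replicate block 2 members were called in inhibitory neurons, Potegl (adjusted p = 0.0371) and Abi3bp (adjusted p = 0.041). Leaving out 1 library gave 0 to 1 calls, the 1 being Abi3bp without Control replicate 1 (adjusted p = 0.0405), and Abca4 in inhibitory neurons fell to -0.0014 without Control replicate 2. Among excitatory types 2 members had an unequal change, with 1 at Leiden resolution 0.5 and 1 to 2 when a library was left out. Contrasts of 1 type with the others called 0 to 3 when a library was left out, with 0 for the fit without Control replicate 1. The causes were not tested. With 2 libraries per genotype, leaving 1 out leaves a lone library that is assumed to vary like the others.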

Other observations

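The 893 nuclei in unnamed clusters entered no comparison. In the largest of these clusters, with 507 nuclei over all libraries, Abi3bp stood at 24.6 CPM, Rad51ap2 at 11.9 CPM and Skap1 at 1.92 CPM. Another, with 141 nuclei and leading genes F13a1 and Mrc1 of macrophages, held Skap1 at 77.7 CPM and Abi3bp at 64.3 CPM, from 52 and 43 UMIs, and 51.4% of the nuclei that fell into it had been marked as doublets.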
